A study of Mus musculus with 18 samples.

Results

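The 8 genes described here encode complement components and receptors: the C1q chains C1qa, C1qb and C1qc, the components C4b and C3, the receptors C3ar1 and C5ar1, and the inhibitor Serping1. They were taken by name from the table of read counts per gene, in which each symbol matched 1 of 54532 genes, and all 8 passed the filter on low counts that left 17833 genes for testing. The study sequenced polyadenylated RNA of the gastrocnemius, the large calf muscle, of female C57BL/6 mice, with 3 libraries in each of 6 groups. The mKO groups carried a conditional knockout of the zinc finger gene Zfp697 in skeletal muscle and the flox groups carried the flox/flox allele. Mice of each genotype were sampled as cage controls, after hindlimb unloading for 10 days, which takes body weight off the calf muscles, or after reloading for 3 days, which returns it. The labels name no Cre driver, do not say how long the reloaded mice had been unloaded before, and do not state whether replicates were different mice. The p-values below therefore reflect variation among these libraries, which may be technical.

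Complement is a cascade of plasma and tissue proteins that tags microbes, immune complexes and dying cells for removal by phagocytes. In the classical pathway, C1q binds the target and its attached proteases cleave C4. C3 is cleaved at a later step by another enzyme, and the small fragments released further down attract and activate leukocytes through their receptors. In tissues C1q is known chiefly as a product of macrophages, C3 and C4 are made by liver and also by stromal cells, and injured muscle is known to recruit macrophages that clear damaged fibres.

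Total counts ran from 45069595 to 51592566 per library, which gave each member at least 44 reads in every library. The 9 muscle fibre markers summed to 114000 to 159900 counts scaled to a common library size (CPM) per library. Zfp697 itself ranged from 1.05 to 1.31 CPM in mKO and 0.984 to 1.598 CPM in flox controls, from 1.09 to 2.47 CPM in mKO and 1.59 to 1.74 CPM in flox at unloading, and from 1.48 to 1.95 CPM in mKO and 2.334 to 2.795 CPM in flox at reloading, with adjusted p of 1, 1 and 0.172 by edgeR. The labels do not say which part of the gene is deleted, so a count over the whole gene does not check them.

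The C1q genes lie side by side on the minus strand of chromosome 4 (GRCm38). C1qb spans chr4:136880129-136886187, C1qc spans chr4:136889804-136893065 and C1qa spans chr4:136895917-136898803, with gaps of 3616 and 2851 bases and a total span of 18675 bases. They encode the A, B and C chains that assemble into C1q. The other members are scattered: C3 at chr17:57203970-57228136, C4b at chr17:34728380-34743882, C3ar1 at chr6:122847138-122856161, C5ar1 at chr7:16246743-16259540 and Serping1 at chr2:84765387-84775444, each on the minus strand. In the count table only C3 overlapped another gene, the microRNA gene Mir6978, which had 0 reads in all libraries. No 50-base window of exon sequence was shared between any 2 of the 3 C1q genes, whereas 34.6% of the windows of C4b also occurred in its copy C4a at chr17:34809092-34823464. C4a held 7 to 38 reads per library against 480 to 1982 for C4b, and reads from shared stretches could have been left out or assigned to either copy, so the level of C4b is uncertain.

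RefSeq windows of 250 bases before to 50 bases after the start (GRCm38.p6) were found for 5 of the 8 members. For C1qc and C5ar1 the RefSeq start lies inside the gene as counted, so some matches before the start fall within that gene. Those of the neighbours C1qb (chr4:136886151-136886450) and C1qc (chr4:136892865-136893164) are shown because the C1q genes rose together, and that of C3 (chr17:57228087-57228386) because C3 did not pass the test beside them. Each is on the minus strand and read 5′ to 3′, with capitals on matches to any of 5 short motifs searched on both strands.
C1qb: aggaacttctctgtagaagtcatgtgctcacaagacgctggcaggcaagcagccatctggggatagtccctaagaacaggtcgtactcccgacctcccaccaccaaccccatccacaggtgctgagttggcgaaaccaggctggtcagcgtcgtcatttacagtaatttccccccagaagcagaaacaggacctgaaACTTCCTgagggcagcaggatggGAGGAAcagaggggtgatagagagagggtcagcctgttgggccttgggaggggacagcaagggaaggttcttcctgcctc
C1qc: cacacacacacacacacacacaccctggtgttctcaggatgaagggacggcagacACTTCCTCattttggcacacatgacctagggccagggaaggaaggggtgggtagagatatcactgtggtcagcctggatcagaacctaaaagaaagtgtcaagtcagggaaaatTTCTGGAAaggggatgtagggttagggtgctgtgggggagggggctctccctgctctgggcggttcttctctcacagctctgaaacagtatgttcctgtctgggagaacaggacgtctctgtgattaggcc
C3: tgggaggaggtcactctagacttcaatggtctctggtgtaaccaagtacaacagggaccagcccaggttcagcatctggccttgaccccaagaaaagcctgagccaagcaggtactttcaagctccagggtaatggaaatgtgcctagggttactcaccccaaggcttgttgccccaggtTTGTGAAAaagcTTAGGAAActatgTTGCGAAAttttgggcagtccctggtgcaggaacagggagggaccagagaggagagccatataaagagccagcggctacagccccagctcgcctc
The motifs were GAGGAA and AGGAAGT, which are ETS-type sequences bound by factors such as PU.1 of macrophages, GAAANNGAA of the interferon regulatory type, TTNNGNAA of the C/EBP type and TGACTCA of the AP-1 type. Both C1q windows held GAGGAA and AGGAAGT, which in C1qc overlapped, and the C1qc window also held TTNNGNAA. The C3 window held TTNNGNAA at 3 places, of which 1 matched on both strands, and no other motif. Of the windows not shown, that of C3ar1 held TGACTCA and that of C5ar1 held AGGAAGT at 2 places, GAAANNGAA and TTNNGNAA. Such matches are frequent: among all 32851 windows of this length, 28.3% held GAGGAA, 9.35% AGGAAGT, 8.56% GAAANNGAA, 40.7% TTNNGNAA and 5.2% TGACTCA.

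In control muscle the inhibitor and C3 were the most abundant members and the receptors the least. As reads per kilobase of exon in a library of standard size (RPKM), flox controls averaged 36.8 ± 3.4 for Serping1, 22.8 ± 4.3 for C3, 12.1 ± 1.3 for C1qa, 10.3 ± 1.1 for C1qb, 7.07 ± 0.91 for C1qc, 2.94 ± 0.34 for C4b, 0.736 ± 0.285 for C5ar1 and 0.594 ± 0.172 for C3ar1 (SD, n = 3 each). The ranges of C5ar1 and C3ar1 overlapped, while those of C1qa, 11.2 to 13.6 RPKM, and C1qb, 9.04 to 10.99 RPKM, did not. In flox muscle at reloading the order at the top changed: C1qb reached 27.5 ± 6.8 and C1qa 26.2 ± 6.1 RPKM, beside 35.9 ± 8.1 for Serping1 and 23.04 ± 8.26 for C3, and the ranges of C1qa and C1qb overlapped that of C3. In mKO muscle at reloading C1qb and C1qa stood at 11.8 ± 2.9 and 11.7 ± 2.4 RPKM, below C3 at 16.9 ± 2.3 and Serping1 at 31.9 ± 2.3.

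**Figure D1:**
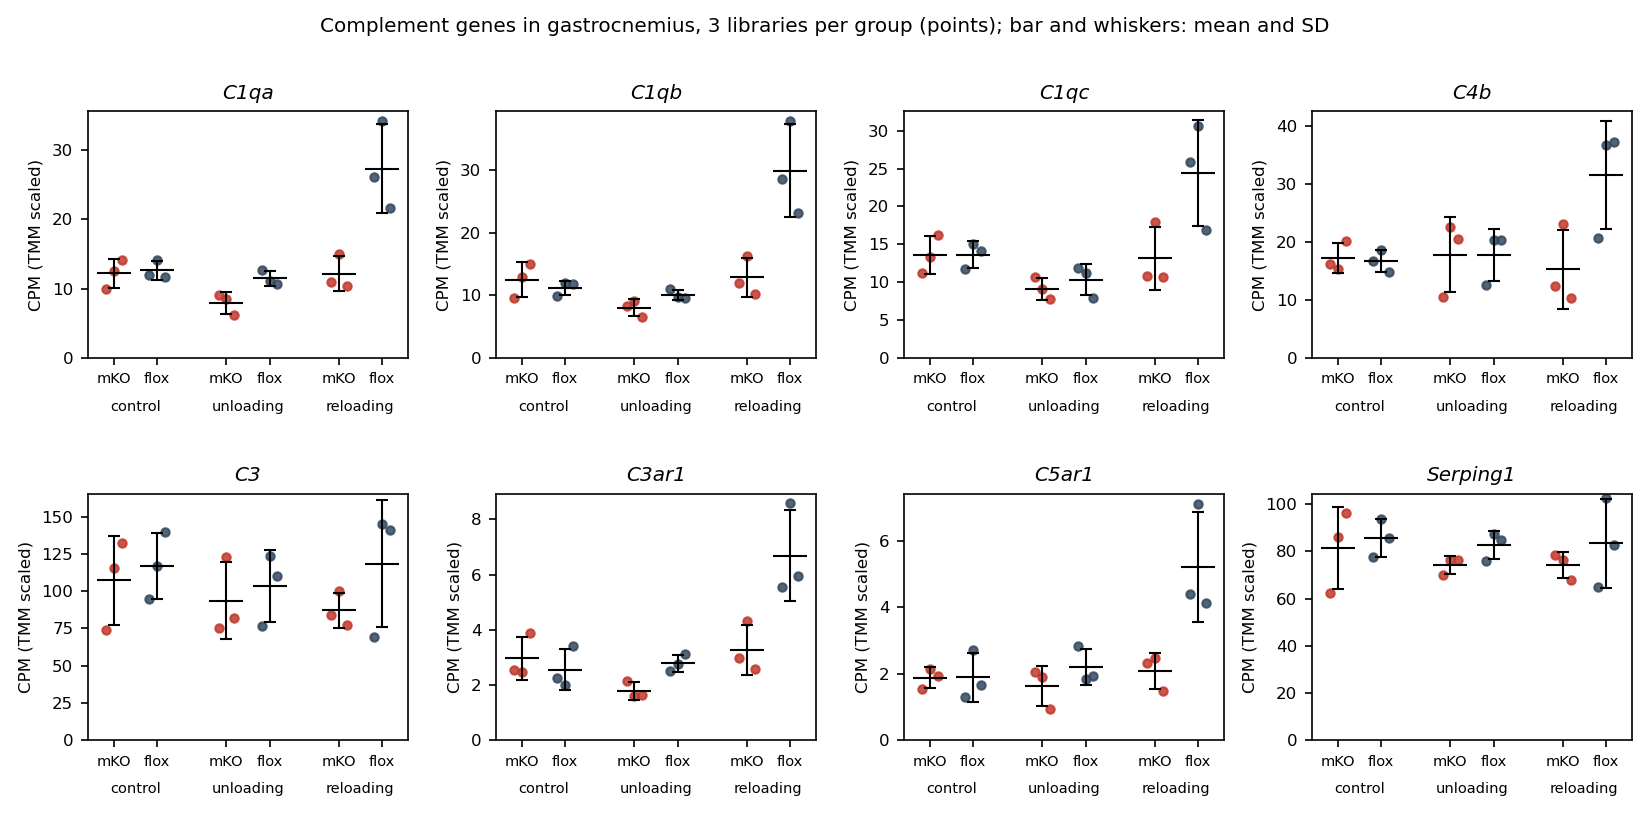
Level of each of the 8 complement genes in CPM (TMM scaled) for mKO and flox libraries at control, unloading and reloading; points are libraries, the bar and whiskers are the mean and SD of 3. Flox reloading stands above all other groups for C1qa, C1qb, C3ar1 and C5ar1, while C3 and Serping1 overlap across groups.

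At flox reloading C1qa, C1qb, C1qc, C4b, C3ar1 and C5ar1 rose over flox unloading, by 1.78- to 2.96-fold, and C3 and Serping1 did not pass the test. The count of 6 higher members of 8 stood beside 17% of all tested genes called higher, and the median log2 fold change of the 8 was 1.24 against 0.004 over all tested genes. The members and the marker lists below were chosen with earlier results of these data known, so such counts are descriptions only.

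Among the recognition subunits, C1qb measured 28.6, 37.9 and 23.2 CPM in the flox reloading libraries, against 10.99, 9.74 and 9.54 CPM in flox unloading. C1qa measured 26.1, 34.2 and 21.6 CPM at reloading against 12.7, 11.2 and 10.6 CPM at unloading, and C1qc 25.9, 30.6 and 16.8 CPM against 11.8, 11.3 and 7.97 CPM. For all 3 chains every reloading library lay above every unloading library, with flox reloading replicate 2 the highest and replicate 3 the lowest of its group. The share of all tested genes set apart in this way was not counted, here or in any comparison below. Statements that groups did not overlap are therefore descriptions only. The log2 fold changes were 1.57 ± 0.20 for C1qb (SE, adjusted p = 1.12e-05), 1.25 ± 0.18 for C1qa (adjusted p = 4.94e-05) and 1.24 ± 0.23 for C1qc (adjusted p = 0.000434), by edgeR's quasi-likelihood test with Benjamini-Hochberg adjustment over all tested genes, which applies to every adjusted p below.

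C4b, whose product is cleaved next in the classical pathway, measured 20.8, 36.7 and 37.3 CPM in flox reloading and 12.6, 20.4 and 20.4 CPM in flox unloading. The lowest reloading library, replicate 1, was just above the highest unloading library, and the log2 fold change was 0.83 ± 0.30 (adjusted p = 0.0392). This call was lost without flox unloading replicate 1 or 2 or flox reloading replicate 2 or 3, with an adjusted p of up to 0.169. The copy C4a did not pass, at 0.19 ± 0.43. C3, the component on which all pathways converge, measured 69.5, 145 and 141 CPM at reloading against 76.8, 124 and 110 CPM at unloading, with overlapping ranges and a log2 fold change of 0.19 ± 0.26 (adjusted p = 0.619, interval -0.36 to 0.75 at 95%).

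The receptors changed by about as much as the C1q chains. C3ar1, the receptor of the C3 fragment C3a, measured 5.55, 8.58 and 5.94 CPM in flox reloading against 2.49, 2.77 and 3.11 CPM in flox unloading, with a log2 fold change of 1.26 ± 0.24 (adjusted p = 0.000666). C5ar1, the receptor of the C5 fragment C5a, measured 4.39, 7.11 and 4.14 CPM against 2.82, 1.84 and 1.94 CPM, with a log2 fold change of 1.24 ± 0.31 (adjusted p = 0.00453). Neither receptor's groups overlapped. Serping1 encodes the C1 inhibitor, which blocks the proteases attached to C1q. It measured 65.0, 103 and 82.9 CPM at reloading and 76.0, 87.5 and 84.9 CPM at unloading, a log2 fold change of 0.01 ± 0.15 (adjusted p = 0.965, interval -0.30 to 0.32).

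**Figure D2:**
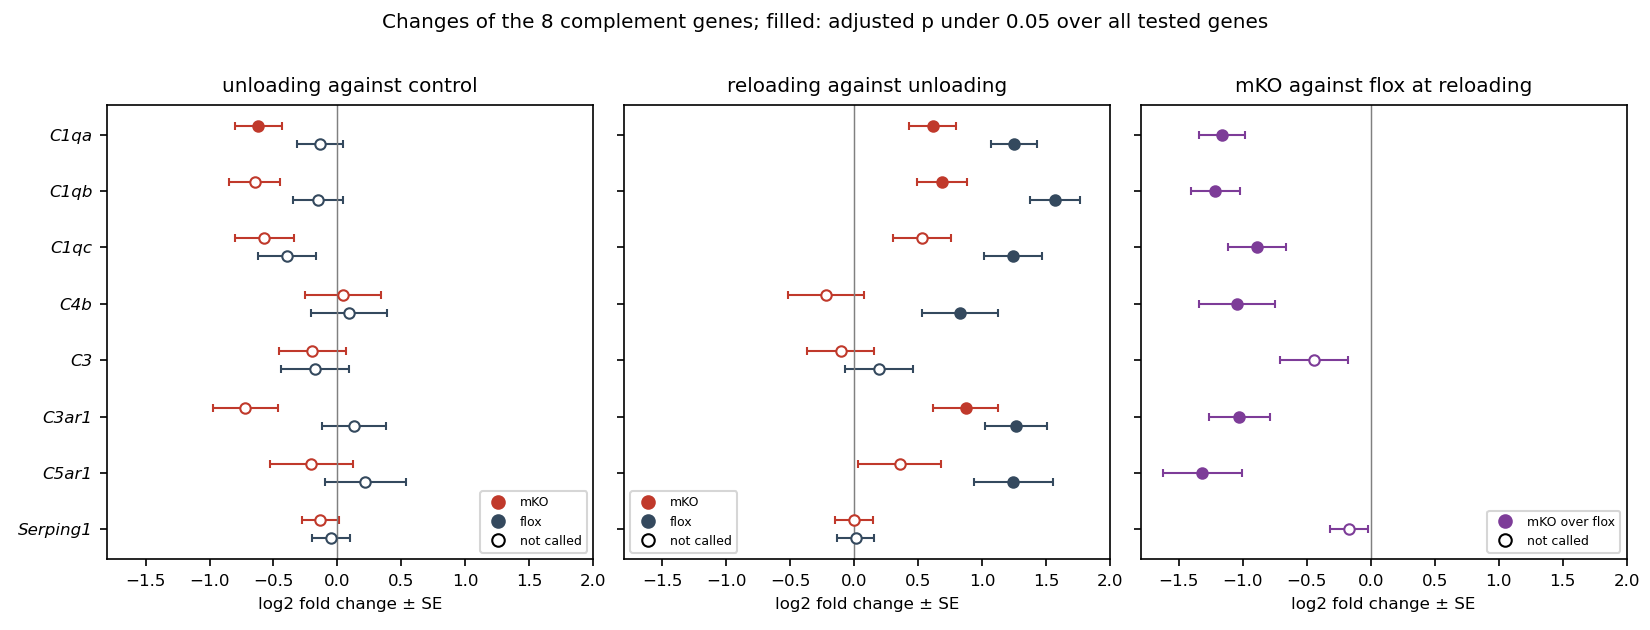
Log2 fold change with SE of the 8 complement genes in mKO and flox muscle for unloading against control and reloading against unloading, and for mKO against flox at reloading; filled points had an adjusted p under 0.05. The flox reloading changes of the C1q chains and both receptors lie between 1.24 and 1.57, and Serping1 lies near 0 in each panel.

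Against flox controls the same 6 members were higher at flox reloading, beside 12.3% of all tested genes. C1qb had a log2 fold change of 1.42 ± 0.19 (adjusted p = 6.33e-05), C5ar1 of 1.46 ± 0.31 (adjusted p = 0.00234) and C3ar1 of 1.39 ± 0.24 (adjusted p = 0.00056). C1qa followed with 1.11 ± 0.18 (adjusted p = 0.000271), C4b with 0.92 ± 0.30 (adjusted p = 0.0321) and C1qc with 0.84 ± 0.22 (adjusted p = 0.0108). C3 stood at 0.02 ± 0.26 and Serping1 at -0.04 ± 0.15. This comparison shares the flox reloading libraries with the previous one. The call of C1qc was lost without flox control replicate 1 or flox reloading replicate 2 (adjusted p up to 0.0766), and that of C4b without any flox control replicate or without flox reloading replicate 2 or 3 (up to 0.122).

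Few of these genes were called after unloading alone. In mKO muscle 1 of 8 members, C1qa, was lower after unloading than in controls, with 9.11, 8.51 and 6.18 CPM against 9.96, 12.5 and 14.1 CPM and a log2 fold change of -0.62 ± 0.18 (adjusted p = 0.047), beside 3.66% of all tested genes called lower. The mKO ranges also did not overlap for C1qb (-0.65 ± 0.20, adjusted p = 0.0518), C1qc (-0.57 ± 0.23, adjusted p = 0.133) and C3ar1 (-0.72 ± 0.26, adjusted p = 0.0924), none of which passed. The share of all tested genes without overlap was not counted. C4b, C3, C5ar1 and Serping1 lay between -0.21 and 0.04 in mKO. In flox muscle 0 of 8 were called by edgeR, 0 had an unadjusted p under 0.05 and DESeq2 called 0, beside 5.74% of all tested genes called in either direction, and the values lay between -0.40 for C1qc and 0.22 for C5ar1. The call of C1qa in mKO was lost without mKO control replicate 2 or 3 or any mKO unloading replicate (adjusted p up to 0.202), and with total-count scaling or a model of only the compared groups. The difference between genotypes in this step was called for 0 of 8 members by edgeR and by DESeq2, with 1 unadjusted p under 0.05, beside 0% of all tested genes.

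In mKO muscle 3 of 8 members, C1qa, C1qb and C3ar1, were higher at reloading than at unloading, beside 9.53% of all tested genes called higher. C1qa measured 10.99, 15.01 and 10.4 CPM in mKO reloading against 9.11, 8.51 and 6.18 CPM in mKO unloading, a log2 fold change of 0.62 ± 0.18 (adjusted p = 0.026). C1qb measured 12.02, 16.3 and 10.3 CPM against 8.34, 9.15 and 6.52 CPM, a log2 fold change of 0.69 ± 0.20 (adjusted p = 0.0206). C3ar1 measured 2.97, 4.30 and 2.56 CPM against 2.16, 1.59 and 1.62 CPM, a log2 fold change of 0.87 ± 0.25 (adjusted p = 0.0225). In all 3 genes mKO reloading replicate 2 was the highest library and the groups did not overlap. C1qc, with 10.8, 17.9 and 10.7 CPM against 10.6, 9.08 and 7.74 CPM, did not pass (0.53 ± 0.23, adjusted p = 0.12). C5ar1 stood at 0.36 ± 0.32, Serping1 at 0.00 ± 0.15, C3 at -0.10 ± 0.26 and C4b at -0.22 ± 0.30, with C4b at 12.4, 23.02 and 10.4 CPM in mKO reloading against 10.5, 22.5 and 20.4 CPM in mKO unloading. All 3 calls were lost without mKO unloading replicate 3 or mKO reloading replicate 2. That of C1qb was also lost without mKO unloading replicate 1 and that of C3ar1 without mKO unloading replicate 2, with adjusted p up to 0.147 over the 3 genes. A model of only the compared groups gave C1qa an adjusted p of 0.0521.

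Against their own controls, mKO muscles at reloading had 0 of 8 members called by edgeR or DESeq2 and 0 with an unadjusted p under 0.05, beside 2.18% of all tested genes in either direction. The log2 fold changes lay between -0.30 for C3 and 0.15 for C3ar1. C1qa averaged 12.1 ± 2.5 CPM in mKO reloading and 12.2 ± 2.1 CPM in mKO controls, and C1qb 12.9 ± 3.1 and 12.5 ± 2.7 CPM (SD, n = 3 each).

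Set against flox at reloading, mKO muscle had lower levels of 6 of 8 members, the same 6 that were called in flox reloading, which shares its libraries with this comparison. All tested genes were called lower in 3.85%, and the median of the 8 was -1.04 against 0.005 over all tested genes. C1qa averaged 12.1 ± 2.5 CPM in mKO and 27.3 ± 6.4 CPM in flox, a log2 fold change of -1.17 ± 0.18 (adjusted p = 0.00182), and C1qb 12.9 ± 3.1 CPM in mKO and 29.9 ± 7.4 CPM in flox, a log2 fold change of -1.22 ± 0.19 (adjusted p = 0.00224). No mKO library reached a flox library for either gene, though the share of all tested genes set apart like this was not counted. Both calls were kept when each of the 6 libraries was left out in turn.

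The other 4 called members had larger errors or overlapping libraries. C5ar1 measured 2.33, 2.46 and 1.48 CPM in mKO against 4.39, 7.11 and 4.14 CPM in flox (-1.32 ± 0.31, adjusted p = 0.0183), and C3ar1 2.97, 4.30 and 2.56 CPM against 5.55, 8.58 and 5.94 CPM (-1.03 ± 0.24, adjusted p = 0.0183). Neither receptor's groups overlapped. C1qc measured 10.8, 17.9 and 10.7 CPM in mKO against 25.9, 30.6 and 16.8 CPM in flox (-0.89 ± 0.22, adjusted p = 0.0279), and C4b 12.4, 23.02 and 10.4 CPM against 20.8, 36.7 and 37.3 CPM (-1.05 ± 0.30, adjusted p = 0.0499). For these 2 genes mKO replicate 2 lay above the lowest flox library. C3 had a log2 fold change of -0.44 ± 0.26 (adjusted p = 0.379) and Serping1 of -0.17 ± 0.15 (adjusted p = 0.583). Each of the 4 calls was lost without mKO reloading replicate 1, mKO reloading replicate 3 or flox reloading replicate 2. C1qc was also lost without flox reloading replicate 1 and C4b without flox reloading replicate 3, with adjusted p up to 0.254 over the 4 genes. A model of only the compared groups called 3 of 8, since C1qc, C4b and C3ar1 then missed the threshold (adjusted p of 0.101, 0.117 and 0.0553).

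Before reloading, no member was called between genotypes by edgeR or DESeq2. At control 0 of 8 were called by edgeR or DESeq2 and 0 had an unadjusted p under 0.05, beside 0% of all tested genes, with values between -0.12 for C3 and 0.21 for C3ar1. At unloading 0 of 8 were called by either tool and 2 had an unadjusted p under 0.05, beside 0% of all tested genes. These were C3ar1 (-0.64 ± 0.26) and C1qa (-0.54 ± 0.18), both with an adjusted p of 1. At unloading every mKO library lay below every flox library for C1qa (6.18 to 9.11 against 10.6 to 12.7 CPM), C1qb (6.52 to 9.15 against 9.54 to 10.99 CPM) and C3ar1 (1.59 to 2.16 against 2.49 to 3.11 CPM). How many of all tested genes were set apart in this way was not counted, so this is a description only. With no filter on low counts C1qa was called (adjusted p = 0.00696).

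Whether the response itself differed between genotypes was tested as the mKO change minus the flox change. For reloading against control, C1qb was called lower (-1.38 ± 0.27, adjusted p = 0.0345), beside 0.499% of all tested genes: its log2 change was 0.04 ± 0.19 in mKO and 1.42 ± 0.19 in flox. C1qa (-1.12 ± 0.25, adjusted p = 0.0551), C3ar1 (-1.24 ± 0.34, adjusted p = 0.108), C5ar1 (-1.31 ± 0.44, adjusted p = 0.189), C1qc (-0.89 ± 0.32, adjusted p = 0.213) and C4b (-1.09 ± 0.42, adjusted p = 0.249) did not pass, each with an unadjusted p under 0.05. C3 stood at -0.32 ± 0.37 and Serping1 at -0.10 ± 0.21. For reloading against unloading 0 of 8 were called by edgeR or DESeq2, beside 0% of all tested genes. The 4 with an unadjusted p under 0.05 were C4b (-1.05 ± 0.42), C1qb (-0.88 ± 0.275), C1qc (-0.71 ± 0.32) and C1qa (-0.63 ± 0.256). C5ar1 stood at -0.89 ± 0.44 and was not among them. The C1qb call was kept without mKO control replicate 1, flox reloading replicate 3 or mKO reloading replicate 2 and lost in the other 9 of 12 leave-outs, with an adjusted p of up to 0.126 without flox reloading replicate 2.

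The proportions of the 3 C1q chains were compared per length, as RPKM ratios. C1qa stood to C1qb at 0.980 to 1.08 in mKO controls, 0.973 to 1.14 in mKO unloading and 0.957 to 1.06 in mKO reloading, all overlapping. In flox the same ratio was 1.04 to 1.28 in controls, 1.17 to 1.21 at unloading and 0.944 to 0.971 at reloading, where reloading lay below both others. C1qc stood to C1qb at 0.585 to 0.657 in mKO controls, 0.559 to 0.718 in mKO unloading and 0.508 to 0.619 in mKO reloading, all overlapping. In flox it was 0.670 to 0.711 in controls, 0.471 to 0.652 at unloading and 0.408 to 0.509 at reloading, where reloading overlapped unloading. The CPM of C4b per CPM of C3 overlapped in mKO, at 0.134 to 0.230 at reloading against 0.139 to 0.248 at unloading, and was set apart in flox, at 0.253 to 0.299 at reloading against 0.164 to 0.186 at unloading. These ratios are descriptions without a test.

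At flox reloading macrophage markers rose with the C1q chains, C4b and both receptors, whereas C3 and Serping1 did not pass. The 16 markers summed to 127.5 to 195.3 CPM in mKO and 155.7 to 170.6 CPM in flox controls, to 110.2 to 156.6 CPM in mKO and 145.2 to 180.4 CPM in flox at unloading, and to 155.8 to 215.6 CPM in mKO and 300.9 to 442.5 CPM in flox at reloading. None of the 16 was at 0 in all libraries. At flox reloading 13 of 16 were called higher than at unloading, beside 17% of all tested genes. At mKO reloading 4 of 16 were, beside 9.53%, and 11 of 16 were lower in mKO than in flox at reloading, beside 3.85%. Their part in the changes of the complement genes was not tested, and in bulk tissue fewer cells of a type and less RNA per cell cannot be told apart.

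The sum of the C1q chains was also taken per sum of the macrophage markers. This ratio was 0.217 to 0.241 in mKO and 0.215 to 0.258 in flox controls, 0.179 to 0.185 in mKO and 0.156 to 0.222 in flox at unloading, and 0.195 to 0.229 in mKO and 0.205 to 0.232 in flox at reloading. The mKO unloading libraries lay below those of mKO controls and mKO reloading, while the flox groups overlapped. Cd68, a lysosomal glycoprotein of phagocytes, averaged 11.4 ± 5.6 CPM in mKO and 35.4 ± 3.9 CPM in flox at reloading, with a log2 change over unloading of 1.94 ± 0.28 in mKO (adjusted p = 0.000151) and 3.20 ± 0.28 in flox (adjusted p = 3.78e-07), larger than that of any C1q chain. The C1q sum per Cd68 was 2.82 to 4.90 in mKO and 1.98 to 2.63 in flox at reloading, and 6.53 to 11.8 in all other libraries. Csf1r, the receptor of a macrophage growth factor, changed by 0.21 ± 0.20 in mKO (adjusted p = 0.529) and 0.87 ± 0.20 in flox (adjusted p = 0.00278), less than the C1q chains, and the C1q sum per Csf1r was 1.89 to 2.20 in mKO and 1.99 to 2.69 in flox at reloading against 1.47 to 2.06 in all other libraries. The C1q sum per Adgre1, a macrophage surface receptor, was 5.9 to 7.5 in mKO and 5.03 to 5.99 in flox at reloading, against 6.95 to 9.86 in mKO and 5.24 to 8.45 in flox at unloading. Per Mrc1, the mannose receptor, it was 0.835 to 1.07 in mKO and 1.06 to 1.22 in flox at reloading, against 0.998 to 1.01 in mKO and 1.06 to 1.33 in flox at unloading. For both of these markers reloading and unloading overlapped in each genotype.

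**Figure D3:**
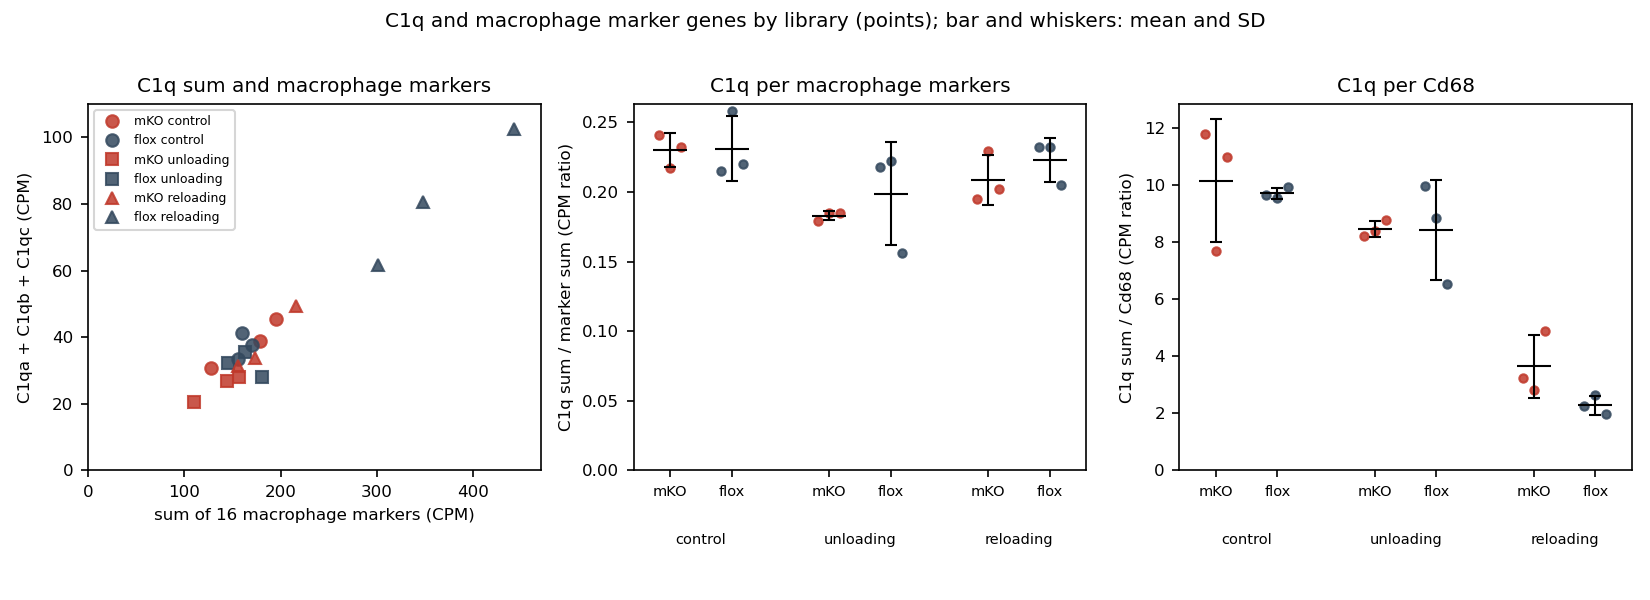
Sum of C1qa, C1qb and C1qc against the sum of 16 macrophage markers by library, and the C1q sum divided by the marker sum and by Cd68, in CPM; points are libraries, the bar and whiskers are the mean and SD of 3. The C1q sum per marker sum lies between 0.156 and 0.258, while the C1q sum per Cd68 is at most 4.90 in the reloading libraries and at least 6.53 in the others.

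Markers of other cells gave these values. The 10 neutrophil markers summed to 0.937 to 1.43 CPM in mKO and 1.53 to 3.70 CPM in flox at reloading, and the highest sum was 11.6 CPM, in flox unloading replicate 3. Ly6g, a defining neutrophil marker, was at 0 in all groups but flox unloading, where it averaged 0.041 ± 0.041 CPM. The 8 liver markers summed to 4.69 to 14.6 CPM in mKO and 10.2 to 37.6 CPM in flox at reloading. The 10 fibro-adipogenic markers, of the stromal cells of muscle, summed to 1919 to 1927 CPM in mKO and 1591 to 1955 CPM in flox at reloading and to 2135 to 2373 CPM in mKO and 2094 to 2715 CPM in flox at unloading. Of these 10, 6 were called higher and 2 lower at flox reloading against unloading, beside 17% of all tested genes higher and 14.9% lower. The median log2 fold change of the 10 was 0.643 in this comparison, although their sum was lower. The 8 endothelial markers summed to 381.5 to 424.1 CPM in mKO and 445.9 to 507.5 CPM in flox at reloading, against 321.3 to 360.6 CPM in mKO and 345.4 to 359.8 CPM in flox at unloading. Reloading lay above unloading in both genotypes, and mKO lay below flox at reloading, without overlap. Of these 8, 6 were called higher at flox reloading and 3 at mKO reloading than at unloading, beside 17% and 9.53% of all tested genes. At reloading 2 were lower in mKO than in flox, beside 3.85%. At reloading the 12 lymphocyte and mast cell markers summed to 12.84 to 16.41 CPM in mKO and 17.65 to 27.62 CPM in flox, and the 7 dendritic markers to 10.95 to 11.47 CPM in mKO and 13.05 to 15.93 CPM in flox, both without overlap. The 9 muscle fibre markers ran the other way, at 131600 to 159900 CPM in mKO and 114000 to 131100 CPM in flox at reloading, without overlap. In mKO 1 of the 9 was called higher, beside 1.06% of all tested genes. The 7 adipocyte markers overlapped at reloading, with 195.9 to 271.6 CPM in mKO and 240.6 to 397.3 CPM in flox. At unloading they summed to 306.9 to 435.9 CPM in mKO and 264.6 to 362.9 CPM in flox, so that reloading lay below unloading in mKO and overlapped it in flox. At mKO reloading 3 of 7 were called lower than at unloading, beside 8.81% of all tested genes, and at flox reloading 0 of 7 were called by edgeR. The part of these cell types in the results was not tested either.

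Over the 18 libraries, which share the 6 groups, log2 CPM of the members was compared as a description. The C1q chains and receptors correlated with each other at Pearson's r of 0.79 to 0.976, highest for C1qa with C1qb (0.976, and 0.936 after group means were removed). C3 correlated with Serping1 at 0.848 (0.831 after group means were removed) and with C4b at 0.623, and with the C1q chains and receptors at 0.276 to 0.333. C4b correlated with the C1q chains and receptors at 0.496 to 0.613. After group means were removed, C4b stood at 0.015 to 0.289 with them and C3 at 0.15 to 0.467, and C3ar1 with C5ar1 stood at 0.266, against 0.79 before. Outside the members, the genes most alike were Inpp5d (0.968), Cybb and Sirpa (0.95 each) for C1qa, and Lcp1 (0.966), Stab1 (0.965) and F13a1 (0.964) for C1qb. Those for C1qc were Unc93b1 (0.934), Dbn1 (0.928) and Lair1 (0.927). C3ar1 was most like F13a1 (0.930), Nckap1l (0.928) and Adgre1 (0.919), and C5ar1 most like Pld4 (0.938), Il10ra (0.927) and Fcgr3 (0.917). The closest genes were less close for C4b, with Serpina3n (0.814), Ugcg (0.773) and Plekha8 (0.770), for C3, with Sfrp4 (0.813), Anpep (0.810) and Sfrp2 (0.785), and for Serping1, with Anpep (0.848), Ltbp1 (0.836) and Trim21 (0.804).

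Of 50 further complement genes, 35 were abundant enough to be tested. At flox reloading against unloading 12 of the 35 were higher and 1 was lower, beside 17% of all tested genes higher and 14.9% lower, with a median log2 fold change of 0.30 against 0.004 over all tested genes, and at mKO reloading 5 were higher and 1 was lower, beside 9.53% of all tested genes higher and 8.81% lower. The mKO total of 6 was 3 without mKO unloading replicate 1 or 3, without mKO reloading replicate 1 or in a model of only the compared groups, and 9 with no filter on low counts. By role, in flox 7 of 10 other receptors, 2 of 10 initiators and proteases, 1 of 3 alternative pathway genes and 2 of 9 regulators were higher, 1 of 9 regulators was lower, and 0 of 2 terminal genes were called by edgeR, 1 of them with an unadjusted p under 0.05. In mKO the higher genes were 3 of 10 other receptors, 1 of 10 initiators and proteases and 1 of 9 regulators. The 3 genes of this list called higher in mKO were Cd93, C1qbp and Calr, and those in flox were the same with C5ar2, Itgam, Itgb2 and Lrp1. The list of other receptors is broad, and C1qbp, Calr and Lrp1 are not specific to complement. Its counts are therefore not counts of complement receptors alone. The log2 changes were 0.28 in mKO and 0.296 in flox for C1qbp, 0.445 and 0.574 for Calr, and 0.453 in flox for Lrp1.

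Among other receptors, Cd93, an endothelial and myeloid protein first studied as a C1q receptor, averaged 73.1 ± 5.0 CPM in mKO and 105 ± 16 CPM in flox at reloading, against 43.1 ± 2.6 CPM in mKO and 41.9 ± 3.3 CPM in flox at unloading. Its log2 changes were 0.76 ± 0.11 in mKO (adjusted p = 0.000158) and 1.33 ± 0.11 in flox (adjusted p = 2.88e-07). Itgam and Itgb2 encode the chains of complement receptor 3, which binds fragments of C3. Itgam changed by 0.59 ± 0.32 in mKO (adjusted p = 0.216) and 1.20 ± 0.30 in flox (adjusted p = 0.00533), and Itgb2 by 0.30 ± 0.30 in mKO (adjusted p = 0.541) and 1.14 ± 0.30 in flox (adjusted p = 0.00628). Without flox reloading replicate 2, the Itgb2 call in flox was lost (adjusted p = 0.053).

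Among initiators and proteases, Fcna, a ficolin that recognises microbial sugars, changed by 0.88 ± 0.34 in mKO (adjusted p = 0.0872) and 1.37 ± 0.34 in flox (adjusted p = 0.00432). C1s1, which encodes a protease of the C1 complex, changed by 0.15 ± 0.13 in mKO (adjusted p = 0.456) and 0.36 ± 0.13 in flox (adjusted p = 0.0343). The flox call of C1s1 was lost without flox unloading replicate 1 or 2 or flox reloading replicate 2 or 3 (adjusted p up to 0.149). Cfp, or properdin, which stabilises the alternative pathway convertase, changed by 0.45 ± 0.19 in mKO (adjusted p = 0.1) and 0.85 ± 0.18 in flox (adjusted p = 0.00172).

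Among regulators, Clu, or clusterin, which binds the terminal complex, was the one that changed most in both genotypes. It averaged 70.8 ± 8.1 CPM in mKO and 84.0 ± 12.7 CPM in flox at reloading, against 31.1 ± 7.4 CPM in mKO and 31.6 ± 1.7 CPM in flox at unloading, with log2 changes of 1.19 ± 0.15 in mKO (adjusted p = 7.09e-05) and 1.41 ± 0.16 in flox (adjusted p = 3.23e-06). At unloading it was lower than in controls in mKO (-0.92 ± 0.15, adjusted p = 0.00193) and in flox (-0.71 ± 0.15, adjusted p = 0.0121). Cd46, a membrane cofactor for cleavage of C3b, fell by 0.48 ± 0.15 on the log2 scale in mKO (adjusted p = 0.0274) and by 0.55 ± 0.15 in flox (adjusted p = 0.00756) at reloading against unloading. Vtn, or vitronectin, an inhibitor of the terminal complex, changed by 0.29 ± 0.11 in mKO (adjusted p = 0.08) and 0.32 ± 0.11 in flox (adjusted p = 0.0339). The Cd46 call in mKO was lost without mKO unloading replicate 2 or mKO reloading replicate 1 or 2 (adjusted p up to 0.119), and the Vtn call without flox unloading replicate 1 or 3 or flox reloading replicate 1 or 2 (up to 0.189).

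**Figure D4:**
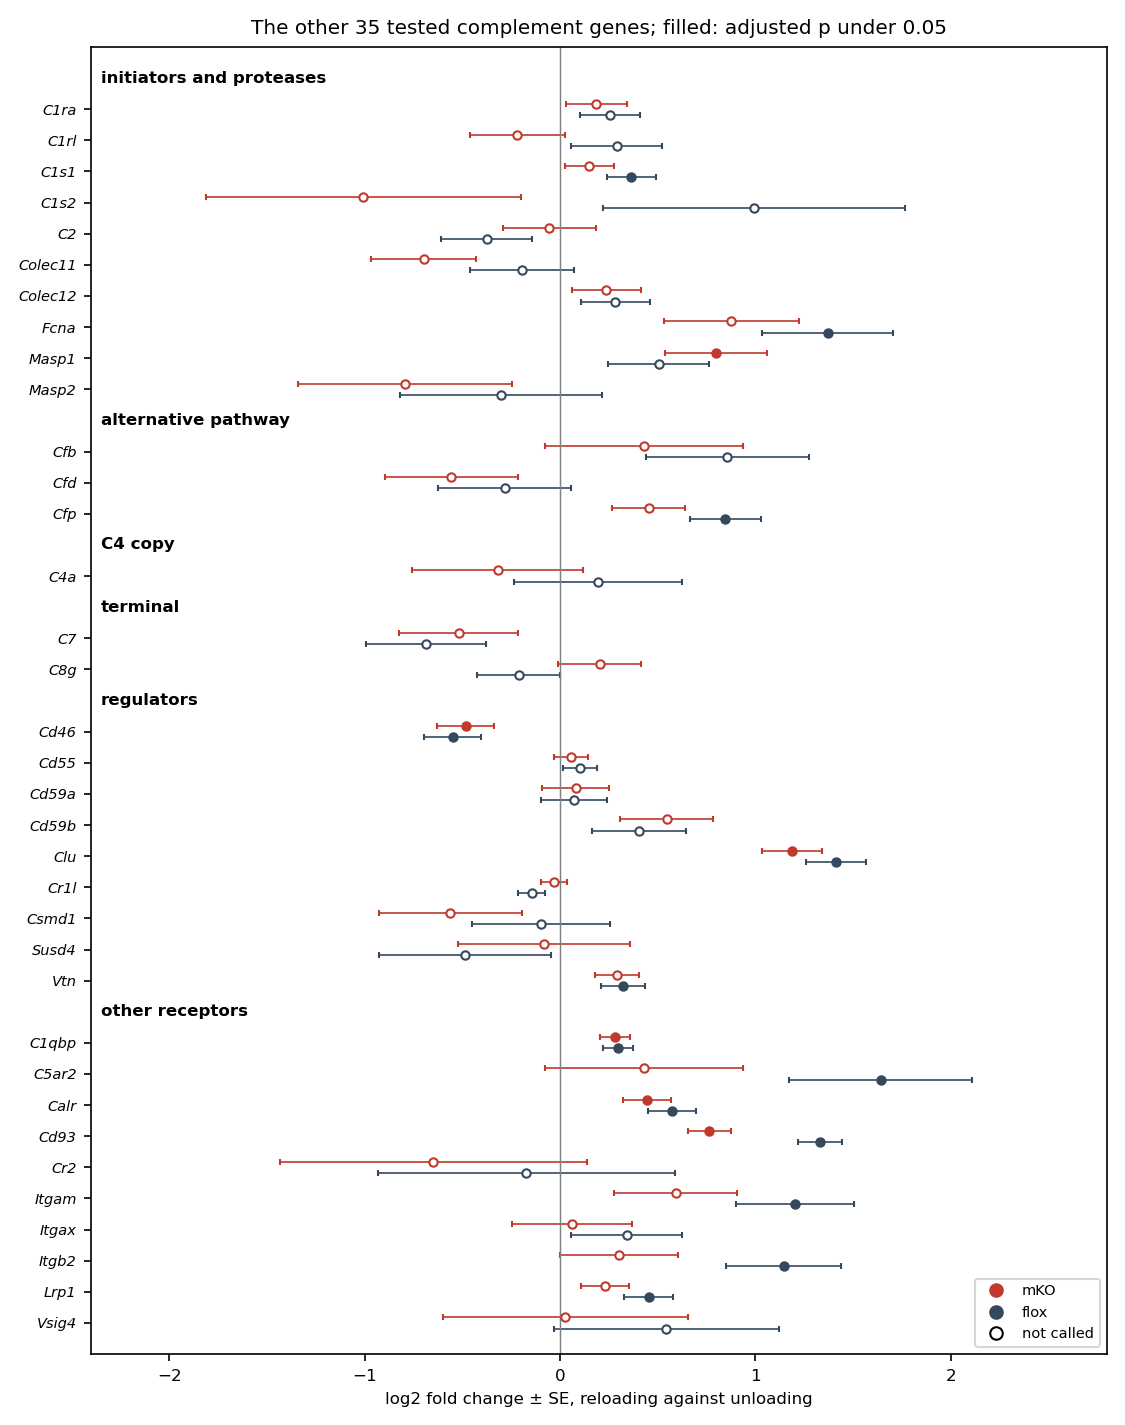
Log2 fold change with SE at reloading against unloading for the 35 further complement genes that were tested, grouped by role, in mKO and flox muscle; filled points had an adjusted p under 0.05. Clu lies at 1.19 in mKO and 1.41 in flox, and 7 of 10 genes listed as other receptors, not all specific to complement, are filled in flox against 3 of 10 in mKO.

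Set against flox at reloading, mKO muscle had 4 of the 35 lower and 0 higher, beside 3.85% of all tested genes lower and 1.06% higher. They were Cd93 (-0.53 ± 0.11, adjusted p = 0.00958), Itgb2 (-1.12 ± 0.30, adjusted p = 0.0343), Cfp (-0.64 ± 0.18, adjusted p = 0.0485) and Cfb (-1.58 ± 0.44, adjusted p = 0.0461). Cfb, the alternative pathway protease factor B, was named after its values were seen, and it was at 0.196 ± 0.060 CPM in mKO and 0.595 ± 0.331 CPM in flox. The inhibitor Clu did not pass (-0.25 ± 0.15, adjusted p = 0.397). Of the 4 calls, 0 were left without flox reloading replicate 2 or without mKO reloading replicate 3, and 6 of the 35 were called without mKO reloading replicate 2. A model of only the compared groups called 2 of the 35 and total-count scaling 7. Adjusted p reached 0.292 for Cfb, 0.247 for Cfp and 0.216 for Itgb2 over these leave-outs, and 0.0862 for Cd93. The interactions called 0 of the 35 by edgeR in each of the 3 steps, with 1, 1 and 5 unadjusted p under 0.05 for unloading against control, reloading against unloading and reloading against control. DESeq2 called 0, 0 and 2 of them.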

How the data were processed

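The table used here holds unscaled read counts for each gene over its exons, as the authors deposited them. Per the submitters' processing notes, STAR 2.7.3a, featureCounts 2.0.3 and GRCm38.p6 were used, whereas featureCounts 1.6.4 and annotation release 94 stand in the file headers. No strand, read-pair or multi-mapping option is shown in the header. Genes with close copies are therefore uncertain. A symbol was found for 54409 of the 54532 genes.

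Counts were scaled by TMM factors (0.952 to 1.095) and analysed in R 4.3.3 by the quasi-likelihood F test of edgeR 4.0.16, on 1 model of 6 group means (18 libraries, 12 residual degrees of freedom, common dispersion 0.0197) and 12 contrasts. Calls required an adjusted p under 0.05, by the Benjamini-Hochberg method across the 17833 genes left by edgeR's default low-count filter. An SE is the log2 fold change divided by the square root of F. Levels are CPM with TMM factors, and RPKM divides them by the exon length in the table. Correlations used log2 CPM with a prior count of 2 and, for the 3 genes most alike, a mean of at least 1 CPM. Promoter windows came from RefSeq (GRCm38.p6), for which 5 of 8 symbols matched.

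The members and the lists were chosen with earlier results of these data known. The rule for other complement genes named up to 3 called genes per role by size of the flox reloading change over unloading, with a mean of at least 1 CPM. C5ar2, C1qbp, Calr and Lrp1 were named beyond this rule, to complete the receptors called. The test was checked on simulated counts. Alternatives were RLE factors, total counts, no filter, at least 1 CPM in 3 libraries, a replicate block, only the compared groups, DESeq2 1.42.0 and leaving out each library. Pairs of libraries of 1 group differed by at least 24.9 chi-square units per degree of freedom, so none was a duplicate. The authors' tables of DESeq2 results were not used here. One complement regulator is not reported here and is left out of these lists and counts.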

Additional observations from a re-analysis of the deposited data

Results flagged for a closer look

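The change of C1qb at reloading against control differed between the genotypes by the test of the difference itself, with a log2 difference of -1.38 ± 0.27 for mKO minus flox (adjusted p = 0.0345, edgeR). This call was kept in 3 of 12 leave-outs, with an adjusted p of up to 0.126. For reloading against unloading the difference of C1qb was not called (-0.88 ± 0.275, adjusted p = 0.252, edgeR). C1qb was at 12.02, 16.3 and 10.3 CPM in mKO reloading against 9.61, 12.9 and 15.1 CPM in mKO controls, and at 28.6, 37.9 and 23.2 CPM in flox reloading against 9.84, 11.96 and 11.8 CPM in flox controls. The mKO groups overlapped and the flox groups did not. The summed macrophage markers moved with it, at 155.8 to 215.6 CPM in mKO reloading against 127.5 to 195.3 CPM in mKO controls and at 300.9 to 442.5 CPM in flox reloading against 155.7 to 170.6 CPM in flox controls, and their part was not tested.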

How the results depend on the processing

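Over 1392 values of the 8 members under the alternatives, 1305 kept their direction and side of the threshold or were uncalled both times, 53 lost a call, 34 gained one and 0 called values changed sign. RLE factors left all 12 counts of called members as they were. At flox reloading, 6 members were called against unloading and 6 against control under all 7 alternatives other than leaving out a library. Total-count scaling moved the median of all genes by 0.109 (flox reloading against unloading), 0.146 (flox reloading against control), -0.134 (mKO against flox at reloading) and -0.137 (interaction, reloading against control).

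For mKO unloading against control the count of 1 became 0 with total counts, 4 with no filter, 2 with at least 1 CPM in 3 libraries, 2 with the replicate block, 3 with DESeq2 and 0 with only the compared groups. For the interaction of reloading against control the count of 1 became 2 with total counts, 6 with no filter, 2 with at least 1 CPM in 3 libraries, 2 with the replicate block and 3 with DESeq2. With no filter, the count of 0 became 1 for flox unloading against control, 1 for mKO reloading against control, 1 for mKO against flox at unloading and 4 for the interaction of reloading against unloading. With only the compared groups, the 6 of mKO against flox at reloading became 3. The cause of these shifts was not tested.

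Leaving out each library in turn gave 5 to 6 called members for flox reloading against unloading and 4 to 6 for flox reloading against control. It gave 0 to 2 for mKO unloading against control and 0 to 3 for mKO reloading against unloading. For mKO against flox at reloading it gave 2 to 6, with 2 without flox reloading replicate 2, mKO reloading replicate 1 or mKO reloading replicate 3. For the interaction of reloading against control it gave 0 to 5, the 5 without mKO reloading replicate 2, and for the other 6 comparisons 0 to 0. For the further 35 complement genes, the same alternatives were chosen after seeing the data.

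No pairing of libraries by replicate number was seen: same-numbered deviations correlated at -0.198 to 0.299, and 0 of 9 contrasts had all 3 correlations over 0.1. With 3 libraries per group this check is weak, and a shared litter or day was not tested. The replicate block changed no other count of called members. Counts of 44 to 384 reads per library limit C5ar1 and 70 to 463 limit C3ar1, and the SEs of these 2 genes were 0.24 to 0.32 outside the interactions.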
